A study of Mus musculus and Rattus norvegicus with 37 samples.

Results

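The Serpin genes of the liver, which encode the serine protease inhibitors of the serpin superfamily and their relatives, were followed in mice given an inhibitor of the miR-29 family and in fatty and lean rats. They were chosen by name alone: their listed symbols begin with Serpin and their means reached 10 normalized counts in a table, with no use of how they changed. Of 67 such entries analysed in each mouse table, 30 reached that mean, the same genes in both tables by symbol. Of 39 entries analysed in each rat table, 20 reached it in lean and fatty rats and 16 in BT2-treated and vehicle-treated rats. Altogether 35 gene names were followed in 37 livers. The remaining entries were too low to test, with the highest mean at 9.47 and 9.07 normalized counts in the mouse tables. Most of them in mice (23 of 37 in each table) are clade B genes, the intracellular serpins that many tissues other than liver use.

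Serpins trap a target protease by offering it a bait, the reactive centre loop, and then refolding around the protease that cuts it. The liver is the main source of the serpins of blood, among them α-antitrypsin (the Serpina1 genes), antithrombin (Serpinc1), heparin cofactor II (Serpind1), antiplasmin (Serpinf2) and the complement inhibitor of Serping1. Some members inhibit nothing and do other work, such as carrying hormones (Serpina6 and Serpina7) or helping collagen to fold (Serpinh1).

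The question put to the mice was which liver genes respond to inhibition of miR-29, and which of these responses need the deacetylase Sirt1. The WT/Floxed table holds 13 female mice, 7 of them C57BL/6J WT aged 9 to 11 weeks and 6 floxed littermates aged 15 to 20 weeks, and the other mouse table holds 8 female littermates aged 15 to 20 weeks and labelled L-Sirt1 KO, a deletion of Sirt1 limited to the liver, whose Cre driver is not given in the sources used here. All were of C57BL/6J background. Each mouse received 1 subcutaneous dose of saline or of LNA29, locked nucleic acids that block miR-29a (20 mg/kg) and miR-29b with miR-29c (20 mg/kg), and fed livers were taken at day 7. In WT/Floxed mice 8 livers (4 WT and 4 floxed) had LNA29 and 5 (3 WT and 2 floxed) saline, after the authors left out 1 floxed saline mouse, and among mice labelled L-Sirt1 KO there were 4 of each. The rats were male: 4 Zucker fatty rats (ZFR), obese because both copies of the leptin receptor gene carry the fa mutation, and 4 Zucker lean rats (ZLR), all 5.5 months old on chow, and 8 further ZFR of 3 months given daily injections of 20 mg/kg BT2, an inhibitor of the kinase that switches off branched-chain keto acid dehydrogenase, or its DMSO vehicle for 1 week (4 each).

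Every value below is a normalized count of polyA+ RNA-seq. Each table was scaled on its own, so levels are compared within a table. An estimated 42.6 to 78 M reads lay behind each mouse library but only 0.188 to 58.5 M behind each rat library, where 1 read could be worth up to 10.5 normalized counts. Serpin transcripts took 2.77% to 3.61% of all counts in a mouse liver and 1.67% to 2.72% in a rat liver. Sirt1 itself lay at 535 to 595 normalized counts with LNA29 and 553 to 617 with saline in livers labelled L-Sirt1 KO. In the WT/Floxed table it lay at 510 to 688 with LNA29, and saline reached 699. Although the tables were scaled separately, their library totals were close. They were 57 to 61.7 M normalized counts in the WT/Floxed table and 56.7 to 61.1 M in the other. Sirt1 was not visibly lower in livers labelled L-Sirt1 KO, but this comparison between tables was not tested. A gene total does not show which part of a transcript remains, so these values do not check the labels. The study itself measured hepatic Sirt1 in both genotypes by RT-qPCR. In whole tissue, fewer cells of a type and less RNA per cell cannot be told apart.

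The mature miR-29 sequences that LNA29 targets (RefSeq, GRCm38.p6) are shown with the seed, bases 2 to 8, in capitals, because the seed fixes which 3′ UTRs can be matched.
mmu-miR-29a-3p: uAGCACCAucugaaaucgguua
mmu-miR-29b-3p: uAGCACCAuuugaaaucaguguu
mmu-miR-29c-3p: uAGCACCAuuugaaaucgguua
They share 1 seed. Only 1 locus is given for each name: chr6:31062673-31062694 on the minus strand (miR-29a), and chr1:195037091-195037113 and chr1:195037600-195037621 on the plus strand (miR-29b and miR-29c). The complement of that seed, TGGTGCT, was searched on the coding strand of the annotated 3′ UTRs of 29 mouse Serpin genes. It occurred in 2 of them (6.9%), against 16.1% of 13473 genes with an annotated 3′ UTR among those tested in WT/Floxed mice and 16.0% of 13530 in livers labelled L-Sirt1 KO. These shares were not matched for 3′ UTR length, and a short 3′ UTR has less room for a match.

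The Serpin matches lie in Serpina12, the adipokine vaspin, and in Serpinc1, antithrombin, and are shown in transcript direction with the match in capitals because these are the Serpin 3′ UTRs that hold it. A match of letters is a description and not a shown target site.
Serpina12, chr12:104030438-104030467, minus strand: tgtccaggtagggtTGGTGCTagcccagct
Serpina12, chr12:104029629-104029658, minus strand: cagtttataagtcgTGGTGCTgctcatgag
Serpinc1, chr1:161002636-161002665, plus strand: acaaacctatatccTGGTGCTtttgaaggt
In the upper Serpina12 match an A follows the capitals, which makes the 8-base form TGGTGCTA. That form occurred in 1 Serpin gene and in 3.5% of all tested genes with a 3′ UTR.

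Neither gene that carries the match passed the test after LNA29. Serpinc1 in WT/Floxed mice ran from 130000 through a median of 138000 to 151000 normalized counts with LNA29, and the saline libraries were at 153000, 136000, 130000, 137000 and 142000. The groups cover the same range, and the log2 fold change was 0 with a 95% confidence interval of -0.14 to 0.13 (adjusted p = 0.986, limma with Benjamini-Hochberg adjustment over all tested genes, as for every adjusted p below). The difference in livers labelled L-Sirt1 KO was 0.08, with an interval of -0.13 to 0.28. For Serpina12 the log2 fold changes were 0.12 (interval -0.35 to 0.60) and -0.12 (interval -0.84 to 0.59). The genes that did pass the test, described next, have no 7-base match in their annotated 3′ UTRs. The longest of these measures only 87 bases in Serpina1e and 114 in Serpina11, where a missing match says little, and 744 in Serpinh1.

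In WT/Floxed mice 3 Serpin genes rose with LNA29 and none fell. The criteria were those of the study: the mean had to exceed 50 normalized counts, the ratio between groups 1.2, and the p and adjusted p had to lie below 0.05 and 0.2. The same criteria called 2.42% of the 15811 tested genes higher and 1.93% lower. The risers were Serpina1e, a minor copy of α-antitrypsin, Serpina11, a little-studied secreted serpin, and Serpinh1, the collagen chaperone of the endoplasmic reticulum. By limma without adjustment, 7 of the 30 members were higher and 3 lower at a p under 0.05, where 6.82% of all tested genes were higher and 6.5% lower. By the exact permutation test 7 were higher and 2 lower, against 6.7% and 6.4% of all tested genes. In no member did all LNA29 libraries lie apart from all saline libraries (1.51% of tested genes did), and the median log2 fold change was 0.05 over the 30 members and 0 over all genes.

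Serpina1e (chr12:103946931-103958975, minus strand, GRCm38) had the largest change of the 3. Its LNA29 libraries ran from 15100 through a median of 48100 to 154000 normalized counts, and the saline libraries were at 9800, 6900, 24800, 37100 and 17200. Every saline library lies below the LNA29 median, though 3 of them exceed the lowest LNA29 library. The means were 58300 ± 43100 (SD, n = 8) and 19200 ± 12200 (SD, n = 5), a ratio of 3.04 and a log2 fold change of 1.56 ± 0.491 (SE; limma adjusted p = 0.159; exact permutation p = 0.0218). The difference was 1.43 among WT mice and 1.87 among floxed mice on the log2 scale. By flow cell it was 0.33, 2.69 and 1.55, the lowest resting on 1 saline library. Leaving out LNA29 replicate 3, 6, 7 or 8 or saline replicate 1, 2 or 5 took the adjusted p to between 0.205 and 0.313, with the log2 fold change between 1.25 and 1.61.

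Serpina11 (chr12:103980243-103989957, minus strand), next to Serpina1e, changed less. With LNA29 it ran from 3730 through a median of 4530 to 5020 normalized counts, and with saline it was at 3770, 3510, 3140, 2970 and 3550. Only the highest saline library reaches into the LNA29 range, where it exceeds the lowest library. The means were 4430 ± 489 (SD, n = 8) and 3390 ± 326 (SD, n = 5), with a log2 fold change of 0.38 ± 0.0885 (SE; limma adjusted p = 0.0476; exact permutation p = 0.00233), and the difference was 0.37 within WT and 0.37 within floxed mice. By flow cell it was 0.47, 0.18 and 0.61. Of its 100-base windows, 41.9% also occur in the overlapping gene Gm28577, which was listed at 0 to 6.72 normalized counts.

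Serpinh1 (chr7:99345376-99353239, minus strand) encodes the chaperone that collagen chains need to fold. It ran from 1120 through a median of 1470 to 1710 normalized counts with LNA29 and was at 1050, 1040, 840, 857 and 1230 with saline. The highest saline library, a floxed mouse, exceeds the 2 lowest LNA29 libraries, which are floxed too. The means were 1440 ± 203 (SD, n = 8) and 1010 ± 162 (SD, n = 5), with a log2 fold change of 0.52 ± 0.119 (SE; limma adjusted p = 0.0464; exact permutation p = 0.00389). Within WT mice the log2 difference was 0.79 and within floxed mice 0.20, and by flow cell it was 0.68, 0.48 and 0.56. Of 12 collagen genes, the substrates of this chaperone, 8 passed the criteria as higher in these livers and none as lower. Col3a1 was higher by 1.19, Col4a2 by 0.96 and Col1a1 by 0.87 on the log2 scale. At an unadjusted p under 0.05 by limma there were 11, of which only Col15a1 was lower (-0.63, adjusted p = 0.293).

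**Figure D1:**
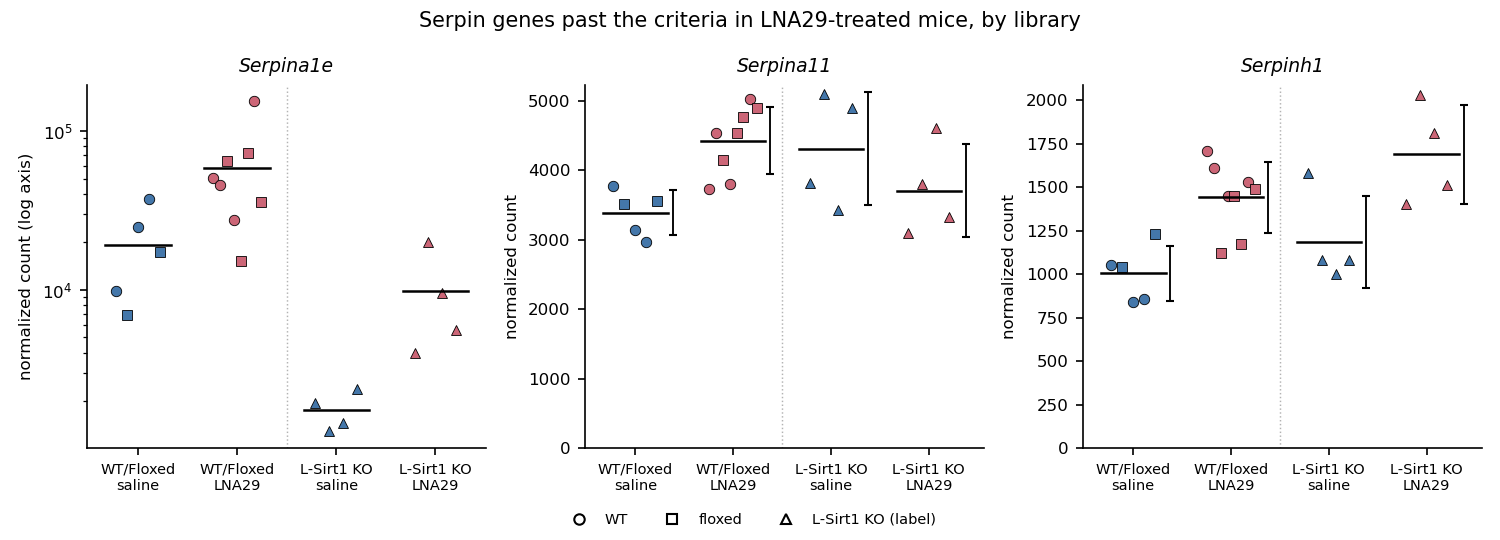
Normalized counts of Serpina1e (log axis), Serpina11 and Serpinh1 in each mouse liver, for saline (blue) and LNA29 (red) in WT/Floxed mice and mice labelled L-Sirt1 KO; horizontal lines are group means, error bars on the linear panels are SD, and circles, squares and triangles mark WT, floxed and L-Sirt1 KO animals. Serpina1e is higher with LNA29 in both tables, with no overlap in the mice labelled L-Sirt1 KO (3970 to 19900 against 1280 to 2360), while Serpina11 is higher with LNA29 in the WT/Floxed table (means of 4430 and 3390) and not in the other (3710 and 4320).

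Serpina1e alone of the Serpin genes rose in livers labelled L-Sirt1 KO, and none fell, where 1.19% of the 15885 tested genes were called higher and 0.68% lower. Its LNA29 libraries were at 3970, 19900, 9560 and 5600 normalized counts and its saline libraries at 1940, 1280, 1440 and 2360. Every LNA29 library lies above every saline library. The means were 9770 ± 7170 and 1760 ± 491 (SD, n = 4 each), a ratio of 5.56 and a log2 fold change of 2.24 ± 0.434 (SE; limma adjusted p = 0.0881), and the exact permutation p was 0.0286, the smallest that 4 against 4 libraries allow. By flow cell the difference was 2.90, 2.20 and 1.60. Without LNA29 replicate 3 the adjusted p was 0.226, with a log2 fold change of 2.16, and with flow cell in the fit it was 0.249, with a log2 fold change of 2.17.

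Groups without overlap were seen in 2 members of this table, Serpina1e and Serpina1a, against 6.95% of all tested genes. By limma without adjustment 3 members were higher and 1 lower (Serpina7) at a p under 0.05, where 6.3% of all tested genes were higher and 4.9% lower. By the exact permutation test 2 were higher and 0 lower, against 3.65% and 3.3% of all tested genes. The median log2 fold change was 0.03 over the 30 members and 0 over all genes.

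Serpinh1 differed by as much in livers labelled L-Sirt1 KO as in WT/Floxed mice, but it missed the limit on the adjusted p. Its libraries were at 1400, 2030, 1810 and 1510 normalized counts with LNA29 and at 1580, 1080, 1000 and 1080 with saline. Saline replicate 1 stands above the other saline libraries and within the LNA29 range. The log2 fold change was 0.52 ± 0.168 (SE; limma adjusted p = 0.287), and without that library 0.66 (adjusted p = 0.120). Of the 12 collagen genes 8 rose in these mice as well, led by Col3a1 (1.74) and Col1a1 (1.71 on the log2 scale).

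**Figure D2:**
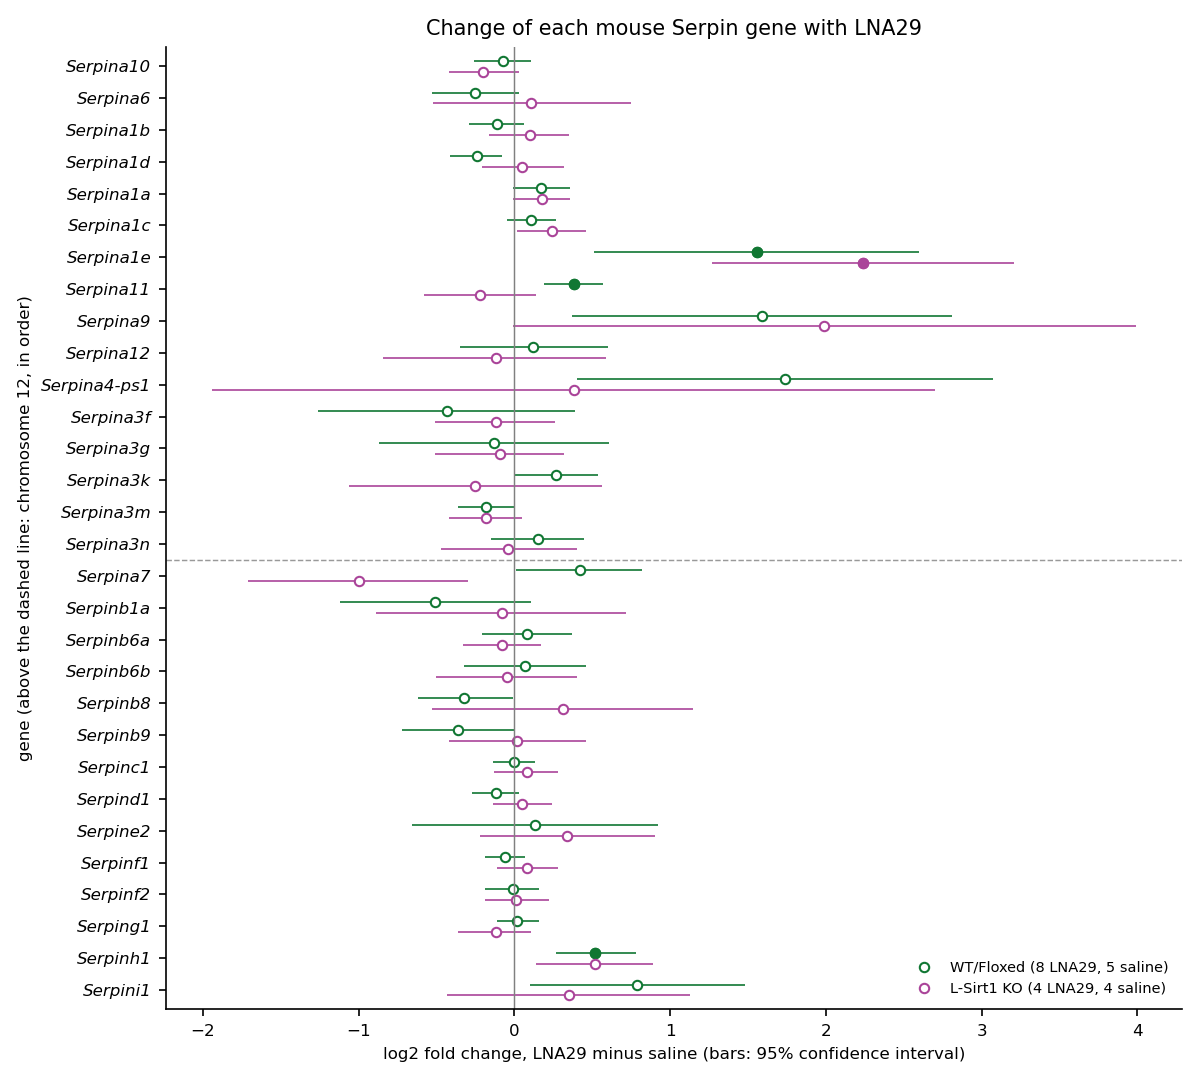
Log2 fold change (LNA29 minus saline) of each of 30 mouse Serpin genes with its 95% confidence interval, in WT/Floxed mice (green) and mice labelled L-Sirt1 KO (purple); genes above the dashed line are in their order on chromosome 12 and filled points passed the criteria. Filled points are Serpina1e in both tables (1.56 and 2.24) and Serpina11 (0.38) and Serpinh1 (0.52) in WT/Floxed mice, and most other members lie near 0.

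Whether the response differed between the genotypes was tested directly, as an interaction over 15601 genes, which compares the differences within the separately scaled tables and no levels between them. The WT/Floxed table pools WT and floxed mice, and its WT mice were younger than the mice labelled L-Sirt1 KO. With no covariate in the fit, genotype cannot be told apart from age and background in this contrast. No Serpin gene passed an adjusted p under 0.2, where 0.0449% of genes did, and 3 had an unadjusted p under 0.05 by limma, where 9.14% of genes did. Serpina7, which carries thyroid hormone, came closest. In livers labelled L-Sirt1 KO it was at 1720, 1700, 1750 and 3340 normalized counts with LNA29 and at 2800, 5500, 2860 and 6270 with saline, a log2 fold change of -1.0 (adjusted p = 0.266), and without saline replicate 1 it was -1.18 and passed the criteria (adjusted p = 0.192). All but 1 of the LNA29 libraries are below all saline libraries. In WT/Floxed mice it ran from 2010 through 3180 to 4520 with LNA29 and was at 3250, 2380, 2150, 1700 and 2220 with saline, 0.42 higher on the log2 scale (adjusted p = 0.361). The difference between the responses was 1.42 ± 0.369 (SE; limma adjusted p = 0.240).

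Serpina11, which rose in WT/Floxed mice, was at 3090, 3800, 4610 and 3330 normalized counts with LNA29 and at 3820, 5100, 3430 and 4900 with saline in livers labelled L-Sirt1 KO. The groups overlap, and the log2 fold change was -0.22 (adjusted p = 0.664). Its difference between the responses was 0.60 ± 0.175 (SE; limma adjusted p = 0.301). Both genes passed this test without WT/Floxed LNA29 replicate 1 or without L-Sirt1 KO saline replicate 3, and Serpina7 alone without WT/Floxed LNA29 replicate 4 or L-Sirt1 KO saline replicate 1. For Serpina1e the difference was -0.69 ± 0.758 (adjusted p = 0.845) and for Serpinh1 0 ± 0.208 (adjusted p = 0.997).

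Serpina1e belongs to a set of near-identical genes, Serpina1a to Serpina1e, whose 1242-base coding sequences are 96.3% to 98.5% identical. They sit in a row of 16 of the 30 mouse members within 800 kb of chromosome 12 (103614786 to 104414329). The bait loop, which decides the protease a serpin meets, is known to differ among the copies. Of 86 coding positions that vary among them, 13 fall in the 30-base stretch with the most differences (the median stretch holds 2), bases 1102 to 1131 of the coding sequence. It is shown in transcript direction, GRCm38, minus strand, with the variable bases in capitals, because such positions are what lets reads be assigned to a copy.
Serpina1a, chr12:103853786-103853815: gcagTtacagtcttACAaATGgTtCCtATG
Serpina1b, chr12:103728353-103728382: gcagCtacagtcttTGAaGCCgTtCCtATG
Serpina1c, chr12:103895123-103895152: gcagCtacagtcttACTaGCCgTtCCtTAT
Serpina1d, chr12:103763791-103763820: gcagCtacagtcttACAaGTCgCtACtTAT
Serpina1e, chr12:103947129-103947158: gcagCtacagtcttACAaGGCgGtTTtTTG
Serpina1e has 24 coding bases that none of the other copies carry, 4 of them in this stretch. Of its 100-base windows, the length of the reads, 14.8% occur in another gene, against 20.6% for Serpina1b, 29.3% for Serpina1d, 49.9% for Serpina1a and 58.5% for Serpina1c. Counts of these copies rest on how Salmon shared out reads that fit several of them, and are uncertain to that extent.

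The sum of the 5 copies did not pass the exact permutation test in either table. In WT/Floxed mice it ran from 1102508 through 1233266 to 1347367 normalized counts with LNA29 and from 1073771 through 1150135 to 1334619 with saline, which overlap, with means of 1220037 ± 85583 and 1183152 ± 101392 (SD; exact permutation p = 0.476). In livers labelled L-Sirt1 KO it ran from 1177315 to 1225989 with LNA29 and from 966115 to 1178843 with saline, an overlap of 1 saline library, with means of 1194783 ± 22621 and 1074480 ± 95675 (exact permutation p = 0.0571). Without saline replicate 3 the latter p was 0.0286, the smallest that the remaining libraries allow. The part of Serpina1e in that sum, given with no test of its own, was 4.64% ± 3.13 with LNA29 against 1.60% ± 0.993 with saline in WT/Floxed mice, and 0.819% ± 0.602 against 0.165% ± 0.0489 in livers labelled L-Sirt1 KO. The share of Serpina1d went the other way in WT/Floxed mice, 14.8% ± 1.18 against 18.1% ± 0.339. Serpina1d itself ran from 163000 through 177000 to 211000 normalized counts with LNA29 and was at 211000, 195000, 209000, 218000 and 237000 with saline. Only LNA29 replicate 1 reaches the saline range. With an adjusted p of 0.159 and a log2 fold change of -0.24, it missed the criteria because its ratio, 1.18, is below 1.2, and it met them without LNA29 replicate 1 (adjusted p = 0.0620) or saline replicate 2 (adjusted p = 0.158), with -0.28 in both. In livers labelled L-Sirt1 KO it differed by 0.05 (interval -0.21 to 0.32), and the interaction was -0.30 (adjusted p = 0.494).

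The other abundant copies overlapped between groups in WT/Floxed mice. Serpina1a averaged 291000 ± 19500 normalized counts with LNA29 and 259000 ± 31100 with saline (SD; log2 fold change 0.17, adjusted p = 0.424), Serpina1b 324000 ± 23600 and 351000 ± 32400 (-0.11, adjusted p = 0.615), and Serpina1c 366000 ± 20500 and 340000 ± 22300 (0.11, adjusted p = 0.599). Where Sirt1 deletion was labelled, Serpina1a was at 289000, 284000, 273000 and 279000 with LNA29 and at 255000, 235000, 256000 and 252000 with saline. All LNA29 libraries lie above all saline libraries, with a log2 fold change of 0.18 (adjusted p = 0.484). Serpina1c was 0.24 higher there (adjusted p = 0.399), with 1 saline library inside the LNA29 range.

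Per kb of transcript, the main copies of α-antitrypsin were the most abundant serpins of saline-treated WT/Floxed liver, with Serpina1c at 250000, Serpina1b at 199000, Serpina1a at 164000 and Serpina1d at 154000 normalized counts per kb. Serpina3k, of the antichymotrypsin family, followed at 124000 per kb. Then came antithrombin (Serpinc1) at 28000, antiplasmin (Serpinf2) at 26900 and the complement inhibitor Serping1 at 20100 per kb. The length used was that of the longest annotated transcript, so the order depends on it. Serpinc1 was divided by 4970 bases and Serpinf2 by 2192, and before that step their saline means were 139000 and 59000 normalized counts. Serpina1e was at 12200 per kb with saline and 37000 with LNA29 in this table, and at 1120 and 6200 per kb in the table of mice labelled L-Sirt1 KO, a difference in level between separately scaled tables that was not tested. The lowest member was the neuronal serpin Serpini1, at 3.57 per kb.

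**Figure D3:**
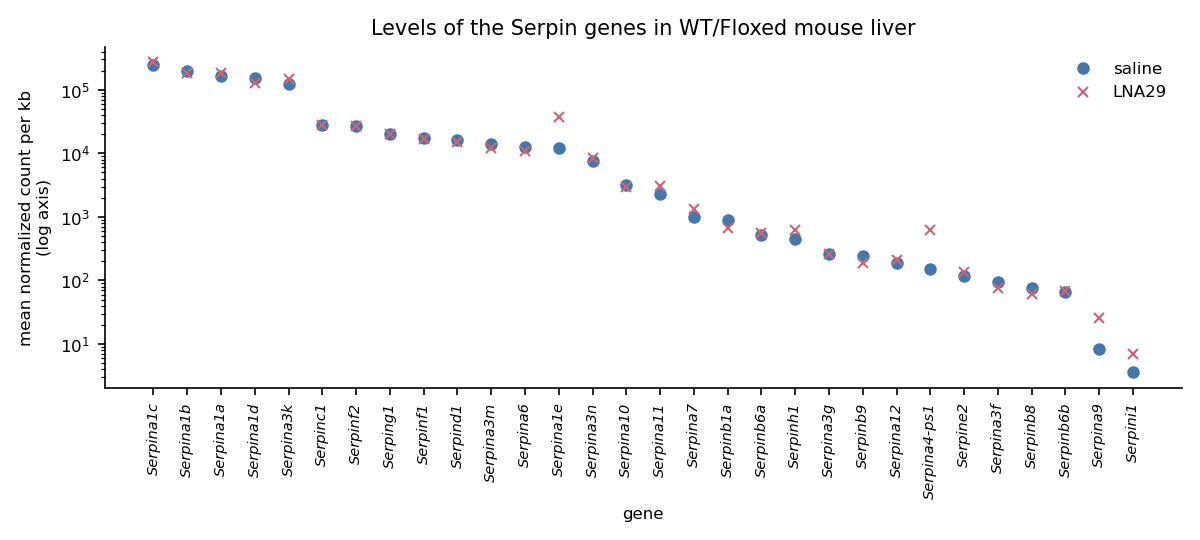
Mean normalized count per kb of the longest annotated transcript (log axis) of each mouse Serpin gene in WT/Floxed liver with saline (blue dots) and LNA29 (red crosses), in order of the saline level. Levels run from 250000 per kb (Serpina1c) to 3.57 (Serpini1), and the markers lie on each other for most genes. They stand apart for Serpina1e (12200 and 37000), Serpina4-ps1 (150 and 611), Serpina9 (8.35 and 26.1) and Serpini1 (3.57 and 7.06).

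The members next to Serpina1e and Serpina11 on chromosome 12 were also followed. Serpina9, a serpin of germinal centre B cells, ran from 17.9 through 67.2 to 191 normalized counts with LNA29 and was at 15.5, 11.4, 77.8, 16.0 and 28.3 with saline in WT/Floxed mice. Its groups overlap, and the log2 fold change was 1.59 ± 0.572 (SE; limma adjusted p = 0.224), or 2.02 (adjusted p = 0.127) without saline replicate 3. With flow cell in the fit it was 1.42 and passed the criteria (adjusted p = 0.111). In livers labelled L-Sirt1 KO it was at 37.6, 20, 140 and 32.8 against 19.9, 38.2, 0.964 and 8.77 (log2 fold change 1.99, adjusted p = 0.448).

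The pseudogene Serpina4-ps1 lies a little further along. In WT/Floxed mice its LNA29 libraries fell into 2 sets: replicates 1 and 2, both WT, were at 102 and 125 normalized counts, and the other libraries lay between 695 and 1250. The saline libraries were at 114, 327, 292, 112 and 122. The log2 fold change was 1.74 ± 0.625 (SE; limma adjusted p = 0.224), and 2.09 (adjusted p = 0.0533) without replicate 1. With WT or floxed background in the fit, which also separates the ages, it was 1.62 and passed the criteria (adjusted p = 0.168). It was 0.38 in livers labelled L-Sirt1 KO (adjusted p = 0.919). Serpina12, which lies between these genes, is given above with 0.12 and -0.12.

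**Figure D4:**
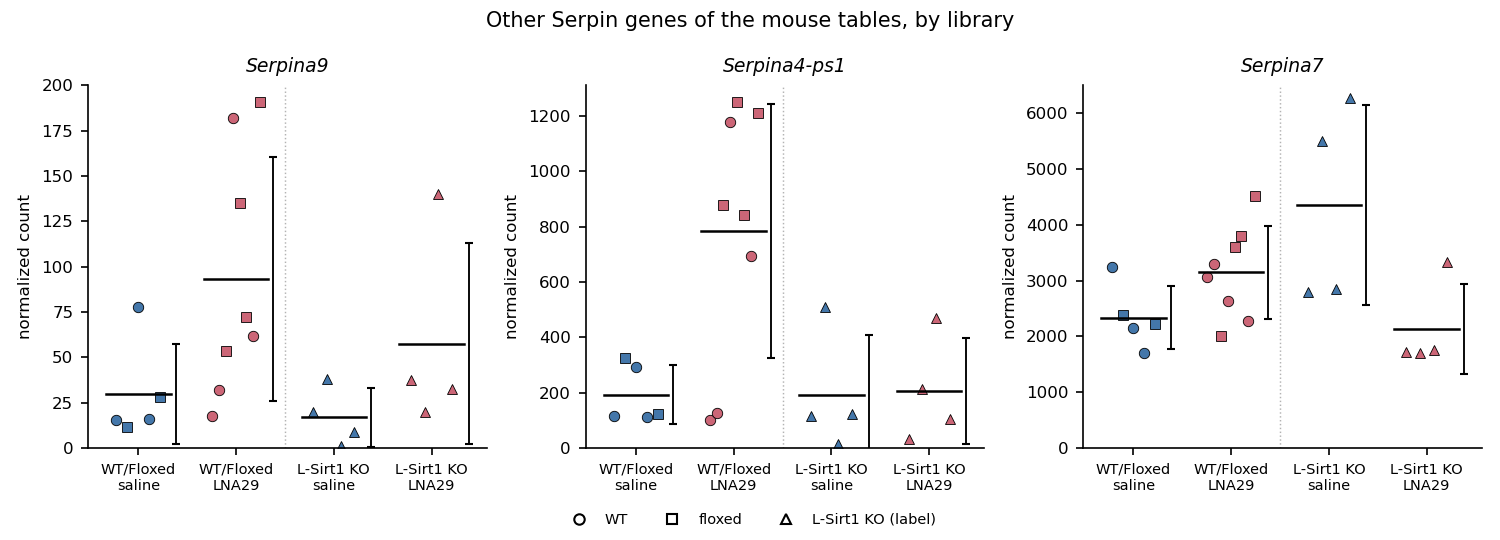
Normalized counts of Serpina9, Serpina4-ps1 and Serpina7 in each mouse liver, for saline (blue) and LNA29 (red); horizontal lines are group means, error bars are SD (drawn only above 0), and circles, squares and triangles mark WT, floxed and L-Sirt1 KO animals. None passed the criteria with all libraries, no covariate and no sample quality weights. With such weights Serpina9 and Serpina4-ps1 passed in WT/Floxed mice and Serpina7 in livers labelled L-Sirt1 KO. Serpina7 lies lower with LNA29 in livers labelled L-Sirt1 KO (means of 2130 and 4360), and the groups of both tables overlap in all 3 panels.

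How many Serpin genes met the criteria in the WT/Floxed table changed with the libraries left out. Without LNA29 replicate 1, 6 members were higher and 2 lower, the additions being Serpina3k (0.34), Serpina4-ps1 (2.09) and Serpina9 (1.87) among the higher and Serpina1d (-0.28) and Serpina6 (-0.32) as the lower. The adjusted p of these 5 lay between 0.0533 and 0.167. Without replicate 2 there were 5 higher, with Serpina4-ps1 and Serpina9 added, and 1 member became lower without saline replicate 2 or 5.

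The antichymotrypsin family, Serpina3, has multiplied in rodents. Serpina3k averaged 309000 normalized counts with LNA29 and 255000 with saline in WT/Floxed mice (log2 fold change 0.27, adjusted p = 0.381), and 183000 against 212000 in livers labelled L-Sirt1 KO (-0.25, adjusted p = 0.835). Its neighbour Serpina3m, with a coding sequence 91.0% identical, was lower by 0.18 on the log2 scale in both tables (adjusted p = 0.373 and 0.559). The sum over all 14 Serpina3 entries ran from 251911 through 345273 to 413057 with LNA29 and from 245142 through 301544 to 335243 with saline in WT/Floxed mice, which overlap, with means of 346807 ± 47318 and 294251 ± 33209 (SD; exact permutation p = 0.0660). In livers labelled L-Sirt1 KO the means were 222612 ± 76689 and 255682 ± 75468 (exact permutation p = 0.571). Of the rest of the family, Serpina3n averaged 17200 and 15600 normalized counts in WT/Floxed mice (log2 fold change 0.15, adjusted p = 0.723), and Serpina3f and Serpina3g, which lie next to each other and are far less abundant, differed by -0.43 (interval -1.26 to 0.39) and -0.13 (interval -0.87 to 0.61). Both of these were highest in the same LNA29 library, replicate 4, at 439 and 1190 normalized counts. For the family sum, the WT/Floxed p was 0.00253 without LNA29 replicate 1 and 0.0444 without saline replicate 4.

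The serpins of coagulation, fibrinolysis and complement did not pass the test in mice. Serpind1, which inhibits thrombin, differed by -0.12 and 0.05 on the log2 scale in the WT/Floxed table and mice labelled L-Sirt1 KO. Serpinf2, which inhibits plasmin, differed by -0.01 and 0.01, and Serping1, which inhibits the first complement proteases, by 0.02 and -0.12. Serpina10, an inhibitor of factor X, differed by -0.07 and -0.20. All 95% intervals of these genes lie between -0.42 and 0.24. Of the proteases that such serpins inhibit, none of 17 tested in WT/Floxed mice and none of 18 in livers labelled L-Sirt1 KO passed the criteria (2 and 0 at an unadjusted p under 0.05 by limma).

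Serpina6, the corticosteroid carrier, differed by -0.25 (interval -0.53 to 0.03) and 0.11 (interval -0.52 to 0.75). Of the clade B genes, Serpinb8 was lower by 0.32 on the log2 scale in the WT/Floxed table (adjusted p = 0.359), Serpinb9, which inhibits granzyme B, by 0.36 (adjusted p = 0.380) and Serpinb1a, which inhibits neutrophil elastase, by 0.51 (adjusted p = 0.495). Without saline replicate 5 the Serpinb9 difference was -0.50 and passed the criteria (adjusted p = 0.167). Serpinb1a was at 2330 and 2310 normalized counts in LNA29 replicates 1 and 2, both WT, and between 785 and 1130 in the other LNA29 libraries, while saline libraries lay between 1130 and 2690. Its difference was -0.04 within WT and -1.03 within floxed mice. The 5 clade B genes in livers labelled L-Sirt1 KO lay between -0.08 and 0.31, with adjusted p-values of 0.796 and above. Serpinb6a and Serpinb6b differed by 0.08 and 0.07 in WT/Floxed mice.

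Of the members left, Serpini1, known from neurons, was at 15.3 to 54.4 normalized counts (median 23.2) with LNA29 and at 13.2, 12.8, 17.1, 12.3 and 17.8 with saline in WT/Floxed mice. Of the saline libraries 3 lie below all LNA29 libraries and 2 just inside their range, and the log2 fold change was 0.79 (interval 0.10 to 1.48, adjusted p = 0.299). Serpine2, which inhibits thrombin at cell surfaces, differed by 0.13 (interval -0.66 to 0.92) and 0.34 (interval -0.22 to 0.90) in the 2 mouse tables. Serpinf1, an inhibitor of vessel growth, differed by -0.06 (interval -0.19 to 0.07) and 0.08 (interval -0.11 to 0.28).

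Other gene groups of these livers are given beside the serpins because they could move with them. None of 8 stellate cell markers passed the criteria in either table (2 and 1 at an unadjusted p under 0.05), with summed levels of 19900 to 24300 with LNA29 and 18500 to 24300 with saline in WT/Floxed mice, and 23200 to 25300 against 22800 to 26000 in the others. Among 8 macrophage markers none passed in WT/Floxed mice (0 at an unadjusted p under 0.05; sums of 7340 to 40600 against 13500 to 23700), and Clec4f and Vsig4 fell in livers labelled L-Sirt1 KO (13100 to 16400 against 16200 to 19500). Of 6 endothelial markers Lyve1 fell in both tables (sums of 7790 to 13100 against 9330 to 13200, and of 9760 to 11000 against 10400 to 11800), and no marker of these 3 types was listed at 0 throughout. Of 5 hepatocyte markers Apoa1 rose and Tat fell in WT/Floxed mice and none passed in the others (1 at an unadjusted p under 0.05). No neutrophil, bile duct, pancreatic acinar or fat cell marker passed in either table (0 and 1 at an unadjusted p under 0.05), and acinar sums ran from 43.9 to 287 with LNA29 and from 21.7 to 1150 with saline in WT/Floxed mice. Acute phase genes, to which α-antitrypsin and antichymotrypsin are often counted, fell in 5 of 21 cases in WT/Floxed mice, led by Saa2 (-1.48) and Lcn2 (-1.02). At an unadjusted p under 0.05 by limma there were 10. Of these, Fga (0.27), Fgb (0.22), Fgg (0.25) and Lbp (0.27) were higher, and Orm3 (-0.78) and the 5 that passed the criteria were lower. In livers labelled L-Sirt1 KO none of 21 passed (4 at an unadjusted p under 0.05), where Saa2 differed by -1.44 (adjusted p = 0.312) and Lcn2 by -1.33 (adjusted p = 0.421). Of 21 genes that differ between male and female liver under growth hormone, 2 rose (Cyp2d9 by 0.81 and Mup20 by 0.59) and 2 fell (Sult3a1 and Mup3) in WT/Floxed mice, and Hsd3b5 (2.55) and Mup1 (1.54) rose in livers labelled L-Sirt1 KO. The part of these groups in the serpin results was not tested.

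In fatty against lean rats, 4 of the 20 members passed an adjusted p under 0.05 as lower in ZFR and 0 as higher, where 2.46% of the 8633 tested genes were lower and 1.8% higher. The lower ones were Serpina3c, Serpina6, Serpind1 and Serpinf2. By limma without adjustment 1 was higher and 5 lower at a p under 0.05 (8.39% and 8.17% of all tested genes), and by the exact permutation test 1 and 4 (7.8% and 6.68%). The groups did not overlap for 5 members, these 4 and Serpinh1, against 14.5% of all tested genes. The median log2 fold change was -0.07 over the 20 members and 0.07 over all genes. Serpin transcripts together took 1.67% to 2.10% of the counts in ZFR and 2.41% to 2.55% in ZLR.

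Serpina3c, an antichymotrypsin-like serpin, changed most clearly. It was at 4130, 3470, 3760 and 3580 normalized counts in ZFR and at 11600, 12500, 12100 and 12100 in ZLR. The groups lie far apart, with little spread in either. The means were 3730 ± 289 and 12000 ± 372 (SD, n = 4 each), 3.23 times lower in ZFR, with a log2 fold change of -1.69 ± 0.0809 (SE; limma adjusted p = 6.49e-06). It was -1.72 and -1.67 within the 2 flow cells, and it passed whichever library was left out (adjusted p up to 0.000106). Serpina3m, the other family member tested in rats, averaged 1380 and 1440, with a log2 fold change of -0.07 (adjusted p = 0.776), so that Serpina3c made up 73.0% ± 3.24 of the family in ZFR and 89.3% ± 0.759 in ZLR.

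Serpina6, the corticosteroid carrier of blood, was at 538, 464, 453 and 678 normalized counts in ZFR and at 1340, 1050, 832 and 908 in ZLR. All ZFR libraries are below all ZLR libraries. Its log2 fold change was -0.95 ± 0.174 (SE; limma adjusted p = 0.0148), with -0.65 and -1.25 within the flow cells. Without ZFR replicate 2 or 3 the adjusted p was 0.0524 or 0.0552.

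Serpind1, heparin cofactor II, was at 1080, 1040, 1240 and 1090 normalized counts in ZFR and at 1720, 1450, 1590 and 1440 in ZLR. The highest ZFR library is below the lowest ZLR library. The log2 fold change was -0.48 ± 0.0947 (SE; limma adjusted p = 0.0205), and without ZFR replicate 1, 2 or 4 the adjusted p lay between 0.0642 and 0.0694. Serpinf2, antiplasmin, was at 1180, 1030, 1190 and 1160 in ZFR and at 1560, 1400, 1410 and 1570 in ZLR. The groups are again apart, with a log2 fold change of -0.38 ± 0.0868 (SE; limma adjusted p = 0.0414), but leaving out any library took its adjusted p to between 0.0537 and 0.109, and with flow cell in the fit it was 0.0595.

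**Figure D5:**
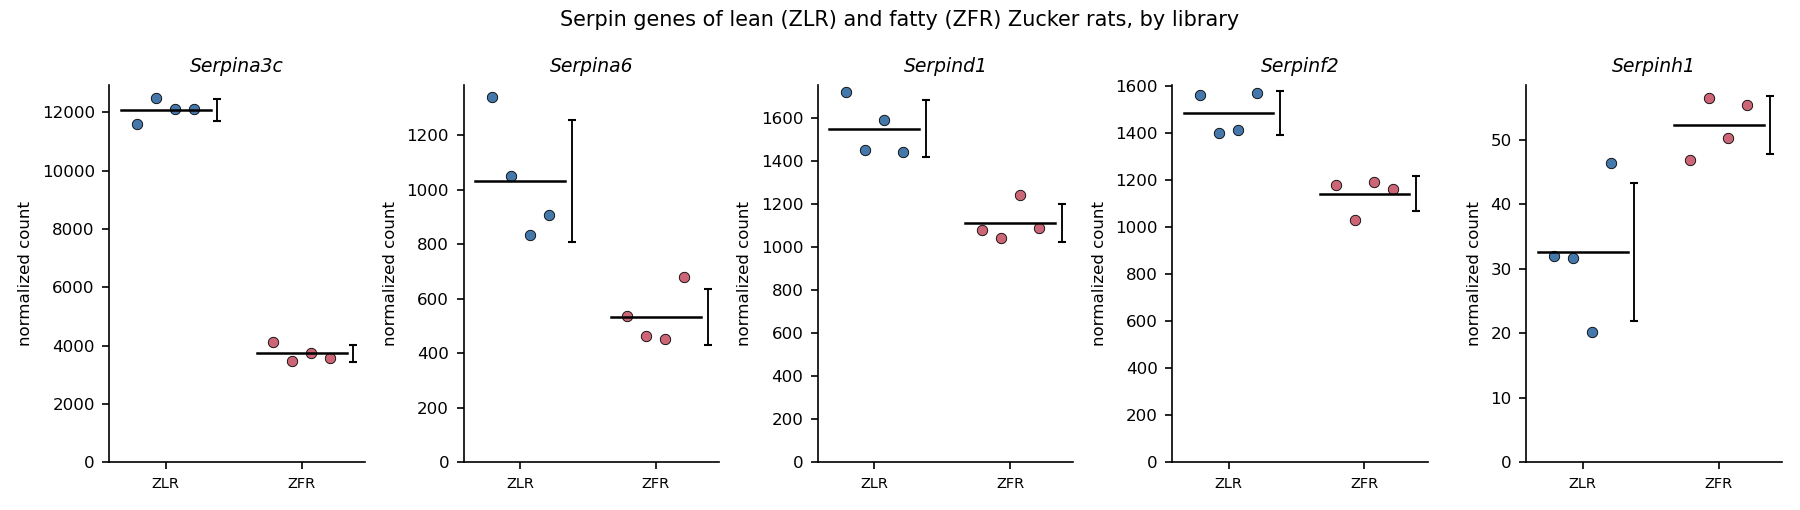
Normalized counts of Serpina3c, Serpina6, Serpind1, Serpinf2 and Serpinh1 in each liver of lean (ZLR, blue) and fatty (ZFR, red) rats; horizontal lines are group means and error bars are SD (drawn only above 0). The groups do not overlap in any of the 5 panels, with Serpina3c at 3470 to 4130 in ZFR against 11600 to 12500 in ZLR and Serpinh1 at 46.9 to 56.5 against 20.2 to 46.4.

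Serpinh1 was at 46.9, 56.5, 50.2 and 55.3 normalized counts in ZFR and at 32, 31.7, 20.2 and 46.4 in ZLR. The highest ZLR library is just below the lowest ZFR library. In ZLR replicates 3 and 4, at 20.2 and 46.4, 1 read was worth 10.5 and 10.4 normalized counts, so these values rest on few reads. Its log2 fold change was 0.72 ± 0.251 (SE; limma adjusted p = 0.175), and without ZLR replicate 4 it was 0.90 (adjusted p = 0.0460). Of 10 collagen genes 3 rose in ZFR, Col1a1 (4.16), Col3a1 (1.56) and Col4a1 (1.16), and none fell.

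Other blood serpins of the rat did not pass the test. Serpina1, a single gene here, was at 19000, 14900, 23000 and 19700 normalized counts in ZFR and at 22600, 22200, 21200 and 22600 in ZLR (log2 fold change -0.22, adjusted p = 0.408), with an exact permutation p of 0.143. Without ZFR replicate 3 the difference was -0.32 and the exact permutation p 0.0286, the smallest that the remaining libraries allow. Antithrombin (Serpinc1) was at 4480, 3190, 3960 and 3890 in ZFR and at 5020, 4470, 4770 and 3870 in ZLR, with overlap and a log2 fold change of -0.23 (interval -0.50 to 0.04). Kallistatin (Serpina4) differed by -0.17, Serping1 by 0.20 and Serpinf1 by -0.04, Serpina10 by 0.04 and Serpina11 by 0.11. Serpina7 was at 11.2, 9.41, 14.6 and 12.4 normalized counts in ZFR and at 54.9, 10.2, 31.6 and 31.3 in ZLR. All but 1 of the ZLR libraries are above all ZFR libraries, and the log2 fold change was -1.16 (adjusted p = 0.250), or -1.61 (adjusted p = 0.0496) without that library, ZLR replicate 2. The Serpina7 values of ZLR replicates 3 and 4 rest on few reads, since 1 read was worth 10.5 and 10.4 normalized counts there. The other members with few reads, Serpina5, Serpine2 and the 4 clade B genes, had means of 10.8 to 37.6 normalized counts in either group and adjusted p-values of 0.511 and above.

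Of the 15 proteases tested in these rats, 3 fell in ZFR and none rose: Klkb1 (plasma kallikrein, -0.79), Plg (plasminogen, the precursor of the target of Serpinf2, -0.50) and Proc (protein C, -0.42). Acute phase genes rose in 6 of 16 cases, led by Lcn2 (5.66), Orm1 (2.12) and Lbp (1.08), and fell in 2, among them Fga (-0.60). Growth hormone-responsive genes fell in 5 of 7 cases, led by Socs2 (-3.91) and Cish (-2.73). Of the cell type markers none of 6 for stellate cells and none of 7 for macrophages passed (2 and 1 at an unadjusted p under 0.05), with stellate sums of 296 to 402 in ZFR and 216 to 326 in ZLR and macrophage sums of 508 to 846 and 459 to 664. Of 5 endothelial markers Stab2 rose, of 6 hepatocyte markers Tf rose and Cps1 and Ttr fell, and no neutrophil, bile duct, acinar or fat cell marker passed (1 at an unadjusted p under 0.05). The part of these groups in the serpin differences was not tested.

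No Serpin gene passed an adjusted p under 0.05 in ZFR given BT2. The same test called 0% of the 8405 genes higher and 0% lower, and at an unadjusted p under 0.05 by limma it marked none of the 16 members and 3.95% of all genes. The exact permutation test marked none either, and 2.96% of all genes. No member had groups without overlap, where 2.96% of all genes did. The abundant member with the largest difference was Serpina3c, which was at 2260, 6970, 3140 and 4060 normalized counts with BT2 and at 5040, 6400, 5930 and 5040 with vehicle. All but 1 BT2 library lie below all vehicle libraries, and that 1 is the highest of all. Its log2 fold change was -0.57 (interval -1.18 to 0.05, unadjusted p = 0.0667 by limma, adjusted p = 0.898). The Serpina3 sum gave an exact permutation p of 0.229. Without BT2 replicate 2, the high library, it was 0.0286, the smallest that the remaining libraries allow, and leaving out others took it up to 0.486.

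The other serpins that differed between fatty and lean rats did not pass the test under BT2. Serpina6 differed by -0.24 (interval -0.62 to 0.14), Serpind1 by 0.14 (interval -0.11 to 0.38) and Serpinf2 by 0.08 (interval -0.16 to 0.33). Antithrombin differed by 0.10 (interval -0.12 to 0.33) and Serpina1 by 0.16 (interval -0.08 to 0.40), with an exact permutation p of 0.114 for Serpina1. Without BT2 replicate 2 the Serpina1 difference was 0.22 and the exact permutation p 0.0286, the smallest that the remaining libraries allow. None of 13 proteases, 7 collagen genes, 16 acute phase genes and 7 growth hormone-responsive genes passed (0, 0, 8 and 0 at an unadjusted p under 0.05), and no cell type marker did (1 at an unadjusted p under 0.05). All 8 of those acute phase genes were higher with BT2, where 3.95% of all tested genes had an unadjusted p under 0.05 by limma. At 0.193 to 8.96 M reads per library, the low serpins of this table rest on few reads.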

How the data were processed

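The deposited values are a signal that the authors made from single-end polyA+ reads of mouse (mm10) and rat (rn6) liver: gene counts estimated, per the submitters' processing notes, with STAR and Salmon and divided by DESeq2 normalization factors, separately in each of 4 tables. Whole reads could not be recovered, since 73.1% to 92.0% of low values in a library were whole multiples of 1 read (tolerance 0.02), so no count model was run. Depth was estimated from the value of 1 read, covers counting error only, and reached from 0.188 to 78.0 M reads.

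Entries without a name (381 in mice and 201 in rats, at most 0.0672% of counts) and entries with a repeated name (130 and 4523) were left out. Genes with a mean of at least 10 were tested on log2(normalized count + 1), a scale that understates changes of low genes, by limma 3.58.1 under R 4.3.3, with lmFit followed by a trended eBayes. The Benjamini-Hochberg adjustment ran over all genes tested. For single genes and family sums, exact permutation p-values over libraries (two-sided) were added. The fits were tested on simulated data with equal depth in all libraries, which does not cover the uneven depth of the rat libraries. Gene positions, transcripts and 3′ UTRs came from GENCODE vM21 (GRCm38), which lists the 30 mouse members, miRNAs from RefSeq, and shared 100-base windows and site searches from Python 3.11.15, pandas 2.3.3 and biopython 1.88. Figures used matplotlib 3.10.9.

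The members and the gene lists (proteases, collagens, acute phase, growth hormone-responsive genes and cell type markers) were chosen with earlier results of these data known. A further Serpin gene is not reported here and enters no count of members. Any member could be named, by clade and role. Values per library were given for members past the criteria, the Serpina1 and Serpina3 family sums, Serpinh1, Serpinc1 and Serpina1e, and for Serpina1a, Serpina1d, Serpina7, Serpina9, Serpina4-ps1, Serpinb1a and Serpini1, which were chosen after their values were seen. Other genes came from the lists, at most 4 a list and comparison, past the criteria and by size of change. Exceptions, given though not past the criteria, were Col15a1, Fga, Fgb, Fgg, Lbp and Orm3 in WT/Floxed mice. Saa2 and Lcn2 in mice labelled L-Sirt1 KO were exceptions too. Alternatives were a pseudocount of 10, no minimum, TMM scaling, sample quality weights, flow cell, replicate block, WT or floxed background, repeated names kept, another limit on the adjusted p, and each library left out. Leaving out libraries under 0.5 M reads was chosen after seeing the data.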

Additional observations from a re-analysis of the deposited data

Results flagged for a closer look

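Among 86 groups of 4 to 8 libraries, 6 held a value whose gap to its nearest neighbour passed Dixon's 95% limit, where chance gives about 1 in 20 groups. Serpina1e was at 154000 normalized counts in WT/Floxed LNA29 replicate 7, with the next library at 73000. In mice labelled L-Sirt1 KO, Serpina7 was at 3340 in LNA29 replicate 4 (next 1750), Serpina9 at 140 in LNA29 replicate 3 (next 37.6) and Serpinh1 at 1580 in saline replicate 1 (next 1080). In WT/Floxed saline livers Serpina9 was at 77.8 in replicate 3 (next 28.3). Antithrombin (Serpinc1) was lowest in ZFR vehicle replicate 3, at 4090, with the next library at 4710. The cause of these values was not tested.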

How the results depend on the processing

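The Serpin genes past the criteria kept their sign in 150 of 150 alternatives and stayed past the limit in 114. Serpina3c in fatty rats passed in all of its alternatives. With sample quality weights, 5 members were higher and 1 lower in WT/Floxed mice, 2 and 1 in livers labelled L-Sirt1 KO, and 2 higher in ZFR. With flow cell in the fit, or an adjusted p under 0.05, 0 were higher in mice labelled L-Sirt1 KO. In ZFR, against 0 higher and 4 lower, 1 was lower with no minimum, 1 was higher at an adjusted p under 0.2, and 1 higher without libraries under 0.5 M reads. The 8-base seed match left 1 gene in place of 2. Leaving out libraries under 5 M reads was not run, since fewer than 2 per group remained.

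With the replicate number as a block, 0 members were higher in WT/Floxed mice, 1 (Serpina7, -1.0) was lower in mice labelled L-Sirt1 KO, and 2 were lower in ZFR. Same-numbered libraries correlated between -0.28 and 0.24, which gives no clear sign that the numbers pair the animals. With so few libraries in a group, these correlations cannot exclude a pairing. The block also uses up degrees of freedom and drops WT/Floxed LNA29 replicates 6 to 8, which have no partner. A library correlated best with its own number in 0 of 5, 1 of 4, 1 of 4 and 2 of 4 cases.

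Leaving out 1 library at a time gave 2 to 6 higher and 0 to 2 lower members in WT/Floxed mice, 0 to 2 and 0 to 1 in mice labelled L-Sirt1 KO, 0 to 1 and 1 to 4 in ZFR, and 0 to 2 in the interaction. The Serpina1 sum then ranged from 0.01 to 0.09, 0.11 to 0.20, -0.32 to -0.11 and 0.09 to 0.22 on the log2 scale in WT/Floxed, L-Sirt1 KO, ZFR and BT2, and the Serpina3 sum from 0.17 to 0.30, -0.41 to 0.02, -1.43 to -1.36 and -0.53 to -0.17. Of the alternatives for members not past the criteria, 26 of 1602 passed. Beyond what each alternative leaves out, the cause was not tested. Rat libraries below 1 M reads limit the low members.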
